A study of Mus musculus with 6 samples.

Results

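Immediate early genes are the genes that cells switch on within minutes of a stimulus, from transcription factors already present and without new protein synthesis. Serum response factor, its partners and CREB turn on many of them after growth factor, stretch, calcium or stress signals, and most of their mRNAs are short-lived. In the heart they are known as a fast response to load, injury and tissue handling. The 31 genes described here were chosen by their counts, because most of them stood high together in 1 of 3 sham hearts, and all 31 were found among the 17447 rows of the table. Of these, 30 were listed under the given symbol, and Cyr61 was listed under its newer name Ccn1. All 31 averaged at least 1 CPM (the count scaled to 1000000 counts in its column). The choice used the levels in the 3 sham hearts, so every comparison between these hearts is a description without a test.

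The series holds RNA-seq counts of 6 hearts from wild-type mice, 3 after sham surgery and 3 with chronic kidney disease (CKD) after removal of most of the kidney tissue. Sham mice had the abdomen opened and the kidneys exposed under ketamine (100 mg/kg) and xylazine (5 mg/kg), as the CKD mice had, but kept their kidneys. The sources used here do not give strain, age, time of tissue collection or the part of the heart taken. All 6 samples carry 1 batch label, and nothing in the labels beyond the replicate numbers says that they are separate animals.

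The row labels were checked first. Sham columns correlated with each other at a Spearman rho of 0.982 to 0.985 and CKD columns with each other at 0.984 to 0.987, but any sham with any CKD column only at -0.0586 to -0.0528 (a description across genes, which are not independent replicates). The row of Myh6, the main adult cardiac myosin of the mouse, held 362529, 443278 and 474768 counts in sham 1, 2 and 3 and 0, 0 and 1 in the CKD columns. The CKD labels did not match their values, so the CKD columns were used no further and no effect of CKD is given. The sham columns held 10480788, 10474487 and 12669724 counts, and their 12 ventricular cardiomyocyte markers took 13.4%, 14.9% and 13.3% of them, as the label heart calls for. Where a level is given with its counting interval, this is the exact 95% Poisson interval of the count and covers counting error only.

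Promoter sequences show what some of these genes share apart from their levels. RefSeq promoter windows (assembly GRCm38.p6, from 250 bases before to 50 after a start site) were matched for 27 of the 31 genes by symbol. Egr1, Egr3, Ier2 and Myc had no window, and sites outside the windows were not searched. The site of the EGR factors, GCGNGGGCG on either strand, was found in windows of 11 of these 27 genes (40.7%) and of 6.27% of all 27025 symbols in the table. The cyclic AMP response element TGACGTCA, the site of CREB, was found in 3 of 27 (11.1%) against 2.03% of all symbols. The CArG box, the site of serum response factor, was found in 2 of 27 (7.41%, Egr2 and Zfp36) against 1.81%. The following stretches are shown because they hold these sites in genes that stood highest in sham 1. Capitals mark the cyclic AMP response element in Dusp1, this element and the EGR site in Btg2 and Maff, the EGR site in Nr4a1 and Klf2, and the CArG box in Egr2.
Dusp1 (chr17:26508520-26508622, minus strand): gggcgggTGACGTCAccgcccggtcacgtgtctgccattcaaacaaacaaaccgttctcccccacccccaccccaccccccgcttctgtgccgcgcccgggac
Btg2 (chr1:134079156-134079335, minus strand): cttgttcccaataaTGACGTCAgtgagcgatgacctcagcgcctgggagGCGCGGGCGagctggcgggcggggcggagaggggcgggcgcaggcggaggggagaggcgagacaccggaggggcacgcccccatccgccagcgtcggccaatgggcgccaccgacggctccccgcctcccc
Maff (chr15:79347400-79347519, plus strand): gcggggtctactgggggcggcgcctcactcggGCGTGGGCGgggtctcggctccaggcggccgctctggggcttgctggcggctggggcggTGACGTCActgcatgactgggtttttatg
Nr4a1 (chr15:101266726-101266845, plus strand): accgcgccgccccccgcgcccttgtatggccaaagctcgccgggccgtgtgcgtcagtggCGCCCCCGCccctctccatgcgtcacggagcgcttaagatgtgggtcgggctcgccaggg
Klf2 (chr8:72318842-72319032, plus strand): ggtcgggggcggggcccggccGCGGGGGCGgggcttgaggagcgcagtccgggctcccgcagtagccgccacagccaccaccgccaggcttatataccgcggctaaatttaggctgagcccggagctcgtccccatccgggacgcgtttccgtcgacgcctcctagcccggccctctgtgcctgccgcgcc
Egr2 (chr10:67537769-67537868, plus strand): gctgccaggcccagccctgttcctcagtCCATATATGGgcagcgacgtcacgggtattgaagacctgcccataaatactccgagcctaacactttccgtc

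Among the other motifs, the AP-1 site TGAGTCA (its reverse is TGACTCA) was found in 1 of 27 genes (3.70%, Csrnp1) against 5.95% of all symbols. A site of NF-kB was found in 6 of 27 (22.2%) against 5.14%, and TATAAA on either strand in 7 of 27 (25.9%) against 15.7%. The GC box GGGCGG was found in 23 of 27 (85.2%) against 38.2%. The GC box shares letters with the EGR site and can overlap it. The 36 windows of these genes had a median GC content of 62.7%, and all 32851 windows of the table one of 52.7%. Its part in the motif shares was not tested. A match is a run of letters and does not show that a factor was bound in these hearts.

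Sham 1 held the highest level of 26 of the 31 genes, a direction that their choice fixes, while 2 peaked in sham 2 and 3 in sham 3. Of all 12491 genes with a mean of at least 1 CPM, 37% peaked in sham 1, 21% in sham 2 and 42% in sham 3. The coefficient of variation between hearts (CV, SD over mean) was at least 30% for 28 of the 31 genes and for 15.1% of all genes. Sham 1 stood at least 1.5-fold above both other hearts in 19 of the 31 genes, against 2.9% of all genes, and at least 2-fold above both in 12, against 1.15%. The median log2 ratio of sham 1 to the mean of the other hearts was 1.00 over the 31 genes and 0.03 over all genes. Together they took 0.210%, 0.0898% and 0.0943% of the counts of sham 1, 2 and 3 (mean 0.131% ± 0.0681, SD, n = 3). In bulk tissue, more cells that express a gene and more of its RNA per cell cannot be told apart.

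**Figure D1:**
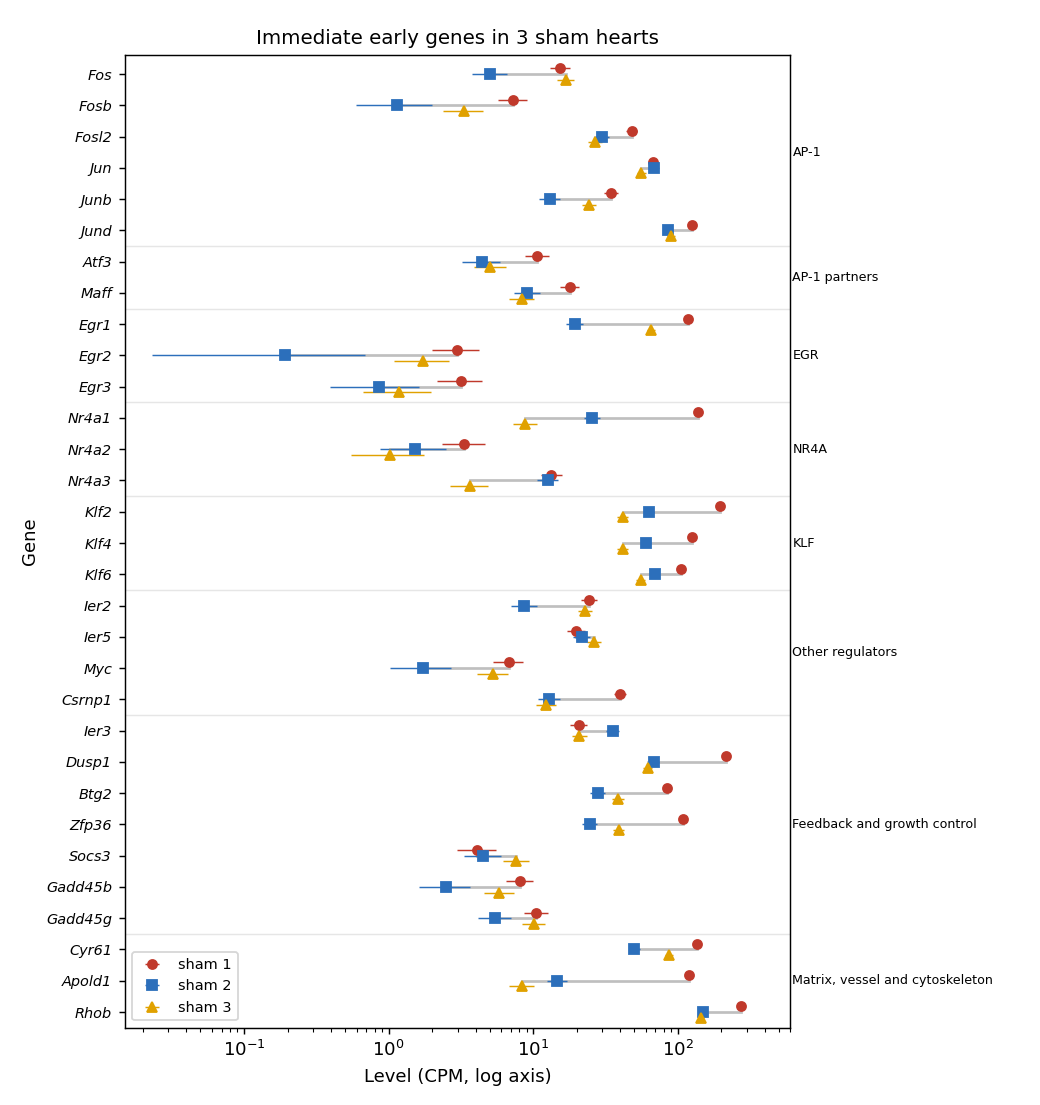
Level of each of the 31 genes in the 3 sham hearts (x axis, CPM on a log axis; y axis, genes by family). Points are single hearts, bars their exact 95% Poisson intervals and grey lines the range; sham 1 is the highest point in 26 rows, while Jun, Ier3, Ier5, Fos and Socs3 peak elsewhere.

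AP-1 is a dimer of a Fos and a Jun protein that binds DNA through a basic leucine zipper. Of its 6 genes listed here, 4 were highest in sham 1. Fos, the classic marker of recent stimulation, stood at 15.3, 5.06 and 16.8 CPM in sham 1, 2 and 3 (160, 53 and 213 counts). Its highest heart was thus sham 3, and the counting intervals of sham 1 (13 to 17.8) and sham 3 (14.6 to 19.2) overlapped, whereas sham 2 (3.79 to 6.62) lay below both. Fosb stood at 7.25, 1.15 and 3.31 CPM, with only 12 counts in sham 2. Both genes were thus lowest in sham 2, and sham 3 stood 3.32-fold above it for Fos and 2.89-fold for Fosb.

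Fosl2, which encodes the Fos-related protein Fra-2, stood at 48.2, 30 and 26.8 CPM, so that sham 1 was 1.61-fold above the next heart and the others were close to each other. Junb, a Jun protein that often opposes c-Jun in growth control, stood at 34.5, 13 and 24.3 CPM. Its order of hearts was that of Fosb. Jun itself was flat at 67.2, 68.8 and 56.0 CPM (mean 64.0 ± 7.0, SD, n = 3), a CV of 10.9%, where the median was 11.8% over all genes and 51.7% over the 31. Jund, which unlike the others is known for steady expression in resting cells, stood at 125, 85.2 and 89.9 CPM with a CV of 21.7%.

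Atf3 and Maff encode further leucine zipper factors, the first a stress-induced repressor and the second a small Maf protein that lacks an activation domain. Atf3 stood at 10.7, 4.39 and 5.05 CPM and Maff at 17.8, 9.07 and 8.37 CPM. Sham 1 was 2.12 and 1.97 times the next heart, and the other hearts had overlapping counting intervals in both genes.

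The EGR proteins are zinc finger factors that bind GC-rich sites, and Egr1 is induced in cardiac cells by stretch and growth signals. All 3 EGR genes were highest in sham 1 and lowest in sham 2. Egr1 stood at 118, 19.4 and 65.4 CPM, so the hearts were well separated and sham 2 was 6.08-fold below sham 1. Egr2 gave 31, 2 and 22 counts, and its sham 1 and sham 3 intervals overlapped. On 2 counts the ratio of sham 1 to sham 2 was 15.5, with an exact 95% counting interval of 3.94 to 134. Egr3 gave 33, 9 and 15 counts, or 3.15, 0.859 and 1.18 CPM, and its sham 2 and sham 3 intervals overlapped.

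The NR4A genes encode orphan nuclear receptors that act without a known classical hormone and are controlled by how much of them is made. All 3 were highest in sham 1 and, unlike the EGR genes, lowest in sham 3. Nr4a1 stood at 138, 25.6 and 8.76 CPM (1442, 268 and 111 counts), a 5.38-fold distance from sham 1 to the next heart and a 15.7-fold range. Nr4a2 gave 35, 16 and 13 counts, or 3.34, 1.53 and 1.03 CPM, and its sham 2 interval overlapped those of sham 1 and sham 3. Nr4a3 stood at 13.4, 12.6 and 3.63 CPM. For Nr4a3, sham 1 and sham 2 could not be separated by counting error, and with scaling by TMM or DESeq2 size factors sham 2 became the highest heart (sham 1 at 0.992 and 0.989 times sham 2).

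The Krüppel-like factors are zinc finger proteins. Klf2 and Klf4 are known as flow-responsive genes of endothelium, and Klf6 is a broadly expressed injury-response gene. Klf2 stood at 197, 63.4 and 41.6 CPM, Klf4 at 125, 60.1 and 41.5 CPM and Klf6 at 105, 69.2 and 55.3 CPM. All 3 had the order sham 1, sham 2, sham 3, as Nr4a1 had. The distance from sham 1 to the next heart was 3.11-fold for Klf2, 2.08-fold for Klf4 and 1.51-fold for Klf6. For Klf6 it was 1.41 to 1.46 under the 4 other scalings, below 1.5.

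The remaining regulators differed among themselves. Csrnp1, a nuclear protein induced by axin, stood at 40.1, 12.9 and 12.3 CPM, with sham 1 alone high. Ier2, a small nuclear protein of the early response, stood at 24.4, 8.69 and 22.9 CPM, and Myc, the growth-promoting transcription factor, at 6.77, 1.72 and 5.29 CPM. In Ier2 and Myc sham 2 was the low heart and the counting intervals of sham 1 and sham 3 overlapped. Ier5, a regulator of heat shock factor activity, varied least of these at 19.8, 21.7 and 26.4 CPM and was highest in sham 3.

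Several members shut the response down. Dusp1, a phosphatase that switches off MAP kinases, stood at 215, 68.4 and 62.0 CPM, with sham 1 3.14-fold above the next heart. Zfp36 encodes tristetraprolin, which marks AU-rich mRNAs for decay, and stood at 108, 24.5 and 39.1 CPM. Btg2, an antiproliferative partner of the mRNA deadenylation complex, stood at 84.3, 28.0 and 38.7 CPM. In these 3 genes sham 1 was more than 2-fold above both other hearts.

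The cytokine and survival regulators did not share this pattern. Socs3, the feedback inhibitor of JAK-STAT signalling, stood at 4.10, 4.49 and 7.66 CPM and was highest in sham 3. Ier3, an apoptosis regulator of the NF-kB response, stood at 20.7, 35.6 and 20.8 CPM and was highest in sham 2 alone. The growth arrest genes Gadd45b (8.11, 2.48 and 5.84 CPM) and Gadd45g (10.5, 5.44 and 10.1 CPM) were low in sham 2, and sham 1 and sham 3 had overlapping counting intervals in both.

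Of the genes acting at the matrix, vessel wall or cytoskeleton, Apold1 had the highest CV of the 31 genes, at 131%. Apold1, an early response gene of endothelial cells, stood at 119, 14.7 and 8.37 CPM (1248, 154 and 106 counts), with sham 1 8.10-fold above the next heart. Cyr61, a secreted matrix protein and target of YAP and serum response factor, stood at 137, 49.9 and 87.0 CPM, with sham 3 between the others. Rhob, an early-induced small GTPase of endosomes and actin, stood at 272, 150 and 146 CPM, with sham 2 and sham 3 alike within their counting intervals.

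Levels of different genes were compared per kilobase of exon (union of exons in GENCODE M21). The highest mean was that of Rhob at 80.5 ± 30.5 CPM per kb (SD, n = 3), followed by Jund at 59.9 ± 13, Klf2 at 54.5 ± 45.6, Cyr61 at 45.1 ± 21.5 and Dusp1 at 34.7 ± 26.1. The lowest were Egr3 at 0.393 ± 0.281, Egr2 at 0.479 ± 0.408, Nr4a2 at 0.484 ± 0.300 and Fosb at 0.625 ± 0.496 CPM per kb. The SDs of neighbouring means in this order overlapped among the genes named. The hearts are the same for every gene, and within each heart Rhob stood above Jund (116 against 74.9, 63.7 against 51.1 and 62.0 against 53.9 CPM per kb in sham 1, 2 and 3) and Cyr61 above Dusp1. Klf2 changed place, above Jund in sham 1 alone (107 against 74.9) and below Cyr61 in sham 3 alone (22.5 against 43.1). The order of the lowest genes named also changed between hearts.

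Sham 2 and sham 3 also differed in these genes. The choice of the genes drew on the levels in all 3 hearts, so these counts too are a description. Sham 3 was at least 1.5-fold above sham 2 in 12 genes, against 15% of all genes: Fos, Fosb, Junb, Egr1, Egr2, Ier2, Myc, Gadd45b, Gadd45g, Cyr61, Zfp36 and Socs3. Sham 2 was at least 1.5-fold above sham 3 in 5 genes, against 2.21% of all genes: Nr4a1, Nr4a3, Klf2, Apold1 and Ier3. The ratio of sham 3 to sham 2 was 9.09 for Egr2, on 22 and 2 counts (exact 95% counting interval 2.24 to 79.8), 3.37 for Egr1 and 3.32 for Fos. That of sham 2 to sham 3 was 3.47 for Nr4a3 and 2.92 for Nr4a1. With 1 heart on each side there is no test of this split.

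In total 14 of the 31 genes were higher in sham 2 than in sham 3, against 34.6% of all genes. Scaling moved the second share, to 49.6% with TMM and 51.2% with DESeq2 size factors (15 of the 31 genes with each). With TMM, 11 genes had sham 3 at least 1.5-fold higher (12.2% of all genes) and 7 had sham 2 at least 1.5-fold higher (3.17% of all genes).

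**Figure D2:**
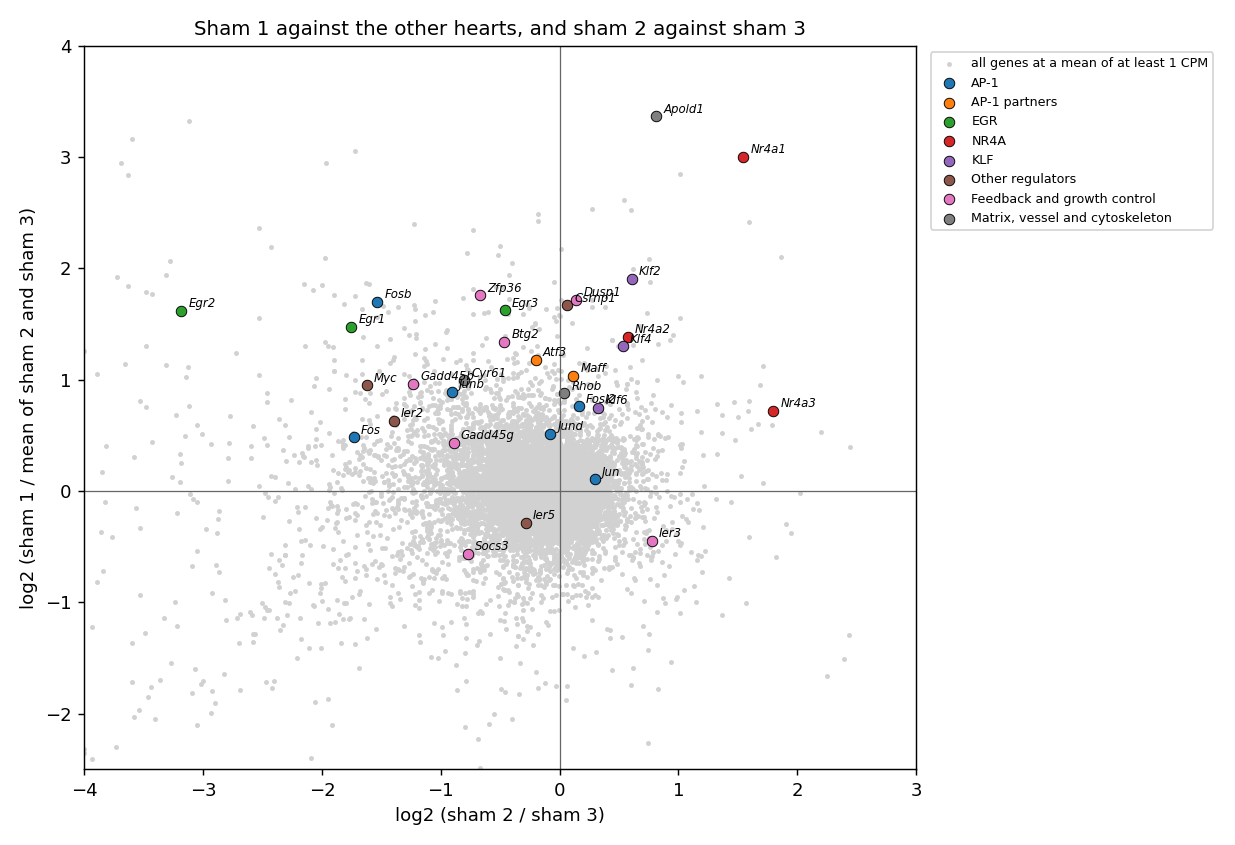
Log2 ratio of sham 1 to the mean of sham 2 and sham 3 (y axis) against the log2 ratio of sham 2 to sham 3 (x axis) for the 31 genes, coloured by family, over all genes with a mean of at least 1 CPM in grey (57 of them outside the axes or without a ratio). Apold1, Nr4a1 and Klf2 lie at the upper right, Egr1, Egr2 and Fosb at the upper left, and Ier3, Ier5 and Socs3 below 0.

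A wider list of 41 other early response genes, chosen like the members with results of these hearts known, had 36 genes with a mean of at least 1 CPM. Of these, 24 peaked in sham 1, 2 in sham 2 and 10 in sham 3, and 9 were at least 1.5-fold above both other hearts in sham 1 (37% and 2.9% of all genes for sham 1). The list's median log2 ratio of sham 1 to the mean of the others was 0.33. Its most separated genes were Sik1, a CREB-induced kinase that inhibits CREB coactivators, at 140, 41.5 and 24.6 CPM, and the transcription factor Cebpd at 39.2, 13.2 and 13.2 CPM. The missing relatives of the AP-1 and EGR genes, named here after their values were seen, were near the limit of detection, with 2, 1 and 4 counts for Fosl1 and 2, 0 and 0 for Egr4.

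Inducible MAP kinase phosphatases and Sprouty-type inhibitors showed the same heart highest in 8 of 12 genes at 1 CPM or more, with 3 of them at least 1.5-fold above both others, where the shares of all genes were 37% and 2.9%. The median log2 ratio of this list was 0.20. Among them, Spry4, an inhibitor of receptor tyrosine kinase signalling, stood at 46.8, 16.0 and 18.1 CPM, and the phosphatase Dusp4 gave 41, 14 and 10 counts. The 29 upstream factors and kinases, which carry the signal to these genes, did not have this pattern. Of them 8 peaked in sham 1, 8 in sham 2 and 13 in sham 3 (37%, 21% and 42% of all genes). In sham 1, 0 were 1.5-fold above both others (2.9% of all genes), and their median log2 ratio was -0.03. The mRNA levels of these factors do not show how active their proteins were. Srf, serum response factor itself, stood at 146 ± 5.73 CPM (SD, n = 3).

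Cell type markers also differed between the hearts. Atrial cardiomyocyte markers summed to 4474, 1558 and 2085 CPM in sham 1, 2 and 3. Clu (1075, 882 and 996 CPM) and Kcnk3 (356, 371 and 336 CPM) held most of the sum in sham 2. Of the 14 markers with at least 1 CPM, 13 were highest in sham 1 (37% of all genes). Myl7, the atrial myosin light chain, gave 5207, 15 and 1032 counts. Bmp10, a growth factor of atrial muscle, gave 261, 1 and 2 counts. Sarcolipin (Sln), which restrains the calcium pump of atrial muscle, gave 1152, 2 and 205. Mesothelial markers summed to 25.5, 4.77 and 12.6 CPM, with 4 of 4 highest in sham 1 (37% of all genes). Wt1 alone held 5.92, 4.49 and 5.37 CPM of these sums. The part of atrial and mesothelial tissue in the early gene levels was not tested.

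Endothelial markers, which bear on Klf2, Klf4 and Apold1, summed to 1994, 1787 and 2204 CPM. Of these 12 genes, 4 were highest in sham 1 and 7 in sham 3 (37% and 42% of all genes). Only Cldn5, a tight junction gene, was 1.5-fold above both others in sham 1 (53.1, 11.6 and 20.3 CPM). Fibroblast markers summed to 4228, 2294 and 4622 CPM and were lowest in sham 2 in 11 of 11. The share of all genes lowest in sham 2 was not counted, while 34.6% of all genes were higher in sham 2 than in sham 3. Macrophage markers summed to 602, 479 and 775 CPM and were highest in sham 3 in 11 of 11 (42% of all genes). Erythroid markers summed to 111, 83.2 and 486 CPM and adipocyte markers to 39.7, 31.4 and 47.5 CPM, each with 4 of 5 genes at 1 CPM or more lowest in sham 2. Cidea alone held 21.75, 30.17 and 29.99 CPM of the adipocyte sums in sham 1, 2 and 3, and so nearly all of the sum in sham 2. It was lowest in sham 1. Among the adipocyte markers lowest in sham 2, the hormone gene Adipoq gave 30, 2 and 27 counts. The part of these cell types in the genes that were low in sham 2, among them Fos, Egr1 and Myc, was not tested. Neutrophil markers summed to 16.6, 14.0 and 10.4 CPM, and lung and airway markers to 0.286 CPM or less in each heart.

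**Figure D3:**
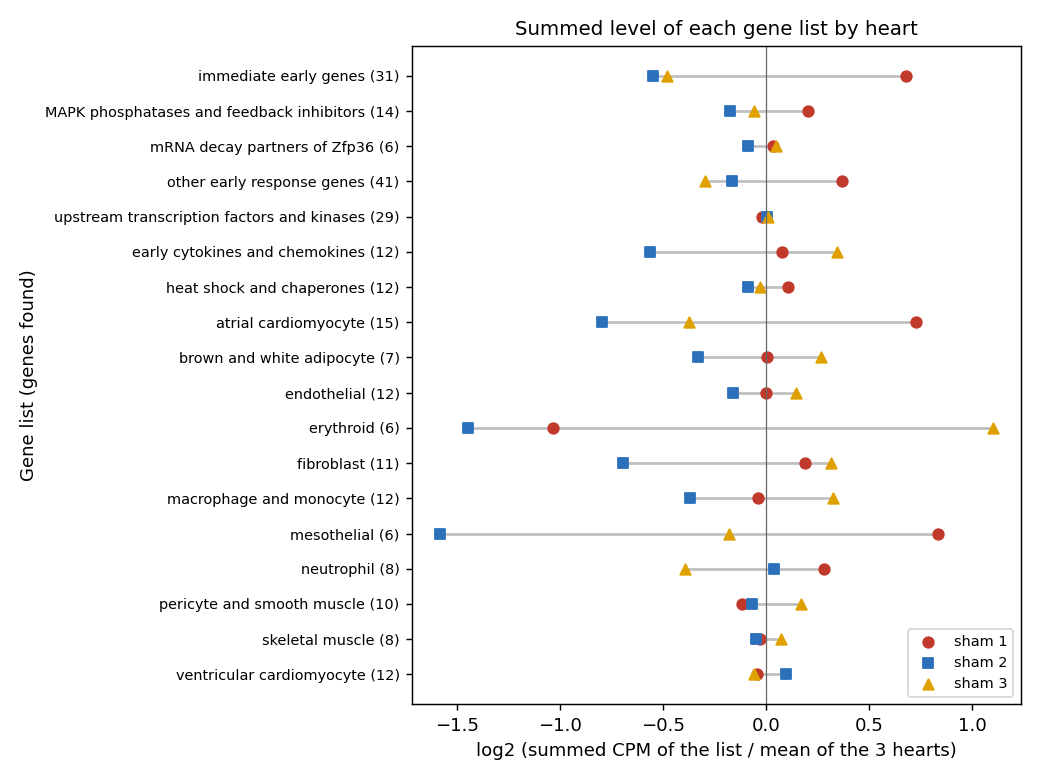
Log2 ratio of the summed CPM of each gene list in 1 heart to its mean over the 3 sham hearts (x axis), with the number of genes found in brackets; points are hearts, grey lines the range. Sham 1 is furthest right for both early gene lists, the phosphatases and inhibitors, and the heat shock genes. The same holds for the atrial, mesothelial and neutrophil markers. Hspa8 makes up the largest part of the heat shock sum in each heart. The 3 hearts nearly coincide for the upstream factors, and endothelial markers are highest in sham 3.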

How the data were processed

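The authors deposited whole-number counts for each gene symbol, not normalized, each heart in a column that carries its title. HISAT2, HTSeq, Trimmomatic and DESeq, and the build mm9, are named per the submitters' processing notes. The sources used here give no versions, settings, strandedness or annotation, so reads shared by overlapping or antisense genes cannot be told apart. Only the 3 sham columns were used, without tests. CPM is the count over the column total, and all genes means those with a mean of at least 1 CPM. Poisson intervals were computed with scipy 1.17.1, and other scalings with edgeR 4.0.16 (TMM, upper quartile), DESeq2 1.42.0 and totals without the 100 highest rows. A count of 0 allows 3 counts, or 0.237 to 0.286 CPM. The counting of genes was tested on simulated data.

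The 31 members and all lists were chosen with earlier results of these data known. All members are named. From each other list, the 2 genes with the highest ratio of sham 1 to the next heart could be named. Myh6, Srf, Fosl1, Egr4, Clu, Kcnk3, Myl7, Wt1 and Cidea were added. Sequences are from RefSeq (GRCm38.p6), without bases in GENCODE M21 exons. Gene lengths are from that annotation. A planned comparison of protein sequences was not made, since protein sequences were not used here.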

Additional observations from a re-analysis of the deposited data

How the results depend on the processing

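With a mean of at least 10 CPM required, 21 of the 31 genes remain, of which 17 are highest in sham 1. With a 2-fold threshold, 12 genes stand above both other hearts in sham 1. Of 57 alternatives for the main counts, medians and shares, promoter motif counts among them, the other 55 stayed within 1.5 times the count or within 1 SD. This SD was wide, at 0.65 for the median log2 ratio and 0.0681 for the percent of counts. Leaving out the filter of 1 CPM could change nothing, since all 31 genes passed it. Under 4 other scalings, 0 of 124 log2 ratios of single genes changed sign, and the largest move was 0.07. The TMM factors lay between 0.955 and 1.03, so that only small moves were possible with TMM. Scaling ended the 1.5-fold distance of Klf6 with each of the 4 and of Fosl2 with DESeq2 size factors (1.4996 times the next heart). Leaving out sham 2 or sham 3 gave 20 to 25 genes at 1.5-fold or more in sham 1 and a median log2 ratio of 0.90 to 1.45. The share of all genes at 1.5-fold rose from 2.9% to 5% without sham 2 and to 12.8% without sham 3. Without sham 1 these have no value, and the summed share is 0.0919% of the counts. Thresholds on sham 2 against sham 3 were added after the data had been seen. No paired analysis was possible because 1 group was used. Depth limits Egr2, Egr3, Fosb, Nr4a2 and Myc, each with 2 to 18 counts in sham 2.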

Other observations

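The 12 heat shock and chaperone genes summed to 3865, 3376 and 3516 CPM in sham 1, 2 and 3. Of them 7 were highest in sham 1 and 0 stood 1.5-fold or more above both other hearts (37% and 2.9% of all genes). Hspa8, the constitutive cytosolic chaperone, held the largest part of the sums at 1909, 1499 and 1481 CPM. The inducible Hspa1a gave 29, 22 and 18 counts. Early cytokines and chemokines summed to 69.3, 44.6 and 83.4 CPM. Of the 7 with at least 1 CPM, 4 were highest in sham 3 and 3 in sham 1 (42% and 37% of all genes). The chemokine Cxcl1, highest in sham 1, gave 33, 11 and 23 counts. The 6 listed regulators of mRNA decay summed to 413, 380 and 418 CPM, and Zfp36l1, a relative of Zfp36, stood at 88.5 ± 5.83 CPM (SD, n = 3).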
